A study of Mus musculus with 12 samples.

Results

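Expression of 34 genes that mark microglia and other macrophages of the brain was followed in the olfactory bulb and hippocampus of mice with and without RasGRF2. The genes were given as a list of symbols. The rule uses no measured value, but the list was drawn up with earlier results of these data known. They comprise 30 microglia genes and 4 genes of perivascular macrophages (Mrc1, Cd163, Lyve1 and Pf4), which are described apart. All 34 of 34 were measured, each by 1 probe set, among 19938 genes with a single symbol. RasGRF2 is an exchange factor that activates Ras proteins, and the study compared mice that lack it (GRF2KO) with wild-type (WT) mice. All animals were adult C57BL/6 mice without a listed treatment, kept in conventional housing in which they met common pathogens. Olfactory bulb and hippocampus came from 3 WT and 3 GRF2KO animals, which gave 12 samples of total RNA in 4 groups of 3 arrays. The labels say nothing on how the knockout allele was made or whether the animals were littermates.

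Microglia are the resident macrophages of the brain parenchyma. They depend on signalling through the receptor Csf1r and on the transcription factor PU.1 (Spi1), and in healthy tissue they carry surface receptors such as P2ry12, Tmem119 and Cx3cr1 and make most of the complement protein C1q. Perivascular macrophages lie along vessels and share Csf1r with microglia, but are known for the scavenger and mannose receptors Cd163 and Mrc1. Each sample was a whole tissue, so fewer cells of a type and less RNA per cell cannot be told apart in any value below.

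The values are log2 array intensities, on which a difference of 1 is a doubling. The targeted gene Rasgrf2 read 9.32, 9.14 and 9.18 in WT hippocampus and 8.64, 8.76 and 8.49 in GRF2KO hippocampus, a difference of -0.58 (SE 0.077, limma adjusted p = 0.00197). In the olfactory bulb it read 9.52, 9.52 and 9.47 in WT and 9.33, 9.35 and 9.43 in GRF2KO, and the difference of -0.14 (SE 0.077) did not pass the test (limma adjusted p = 0.532). The labels do not say whether this probe set lies in the deleted stretch. Array medians were 6.93 to 6.96 in the olfactory bulb and 6.82 to 6.89 in the hippocampus. All 6 measured markers of hippocampal principal neurons were higher in the hippocampus and all 8 of olfactory bulb neurons were higher in the bulb, in both genotypes, as the tissue labels say. Marker lists of blood leukocytes read low in all 4 groups. The mean of 9 neutrophil genes was 5.15 to 5.56 per array and that of 10 T and NK cell genes 5.13 to 5.51.

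Promoter sequence, from 250 bases before to 50 bases after the annotated start, is shown for 4 genes, those with the largest tissue differences among the members that passed the test in both genotypes and have an entry in the RefSeq promoter table (build GRCm38.p6). Of the 34 genes 24 have an entry. The capitals mark GAGGAA, or TTCCTC where it lies on the other strand, which is the core of the sites that PU.1 binds. Ctss lies at chr3:95526536-95526835 (plus strand), Itgam at chr7:128062390-128062689 (plus strand), Aif1 at chr17:35176003-35176302 (minus strand) and Sall1 at chr8:89044113-89044412 (minus strand, the first of 3 entries).
Ctss: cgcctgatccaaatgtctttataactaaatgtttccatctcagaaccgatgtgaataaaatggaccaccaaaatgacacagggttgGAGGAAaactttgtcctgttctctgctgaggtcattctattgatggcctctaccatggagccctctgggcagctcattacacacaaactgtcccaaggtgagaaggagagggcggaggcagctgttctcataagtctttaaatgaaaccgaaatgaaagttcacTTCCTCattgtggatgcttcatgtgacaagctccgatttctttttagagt
Itgam: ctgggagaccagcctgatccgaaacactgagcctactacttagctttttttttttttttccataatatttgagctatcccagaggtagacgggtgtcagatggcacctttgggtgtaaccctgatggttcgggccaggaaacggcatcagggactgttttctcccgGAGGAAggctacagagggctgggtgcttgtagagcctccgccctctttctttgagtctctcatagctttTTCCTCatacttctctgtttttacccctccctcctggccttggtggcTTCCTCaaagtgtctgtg
Aif1: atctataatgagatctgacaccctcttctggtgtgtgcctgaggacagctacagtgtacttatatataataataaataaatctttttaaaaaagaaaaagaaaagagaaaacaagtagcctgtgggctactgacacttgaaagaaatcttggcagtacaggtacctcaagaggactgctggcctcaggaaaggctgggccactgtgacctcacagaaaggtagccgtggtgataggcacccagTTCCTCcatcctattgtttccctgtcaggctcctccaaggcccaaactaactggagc
Sall1: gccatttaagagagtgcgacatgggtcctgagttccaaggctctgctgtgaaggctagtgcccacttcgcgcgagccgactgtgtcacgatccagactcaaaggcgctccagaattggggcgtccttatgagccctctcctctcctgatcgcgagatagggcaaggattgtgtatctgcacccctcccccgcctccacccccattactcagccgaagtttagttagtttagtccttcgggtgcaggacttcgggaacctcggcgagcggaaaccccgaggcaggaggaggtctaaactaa
The printed Ctss promoter holds 1 copy on each strand, that of Itgam 1 on the printed strand and 2 on the other, and that of Aif1 1 on the other strand. The Sall1 promoter shown, which belongs to the member with the largest tissue difference, holds none of these letters. Over the members 15 of 24 genes (62.5%) had the letters in at least 1 promoter, against 30.2% of the 15614 measured genes that have an entry. Counted by promoter, the shares were 55.2% of 29 and 27.0% of 19177. A match of 6 letters is a description of the window and not a bound site.

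The first question was whether the loss of RasGRF2 moved these genes. In the hippocampus 0 of the 34 genes passed the limma test (adjusted p under 0.05), against 0.256% of all genes tested, and 3 had an unadjusted p under 0.05. In the olfactory bulb 0 of 34 passed, against 0.411% of all genes, and 2 had an unadjusted p under 0.05. With both tissues of each animal averaged, 0 of 34 passed in limma, against 0.577% of all genes, and 5 had an unadjusted p under 0.05. The difference between the knockout effects of the tissues passed in limma for 0 of 34 as well, against 0.015% of all genes, with 1 unadjusted p under 0.05. The share of all genes with an unadjusted p under 0.05 is not given here, so these unadjusted counts are not read as an excess. The microglia genes had a median GRF2KO minus WT difference of 0.004 in the hippocampus and 0.023 in the olfactory bulb, and the median over all genes was 0.034 and -0.016. The perivascular genes had medians of 0.028 and -0.024.

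These counts have to be read with the intervals of the differences, since a p that misses the threshold does not show that the genotypes are alike. In each tissue the 95% interval of 33 of the 34 genes lay within -0.5 to 0.5, that is within a 1.41-fold change either way. The exception in both was Ly86, a partner of a Toll-like receptor homologue on myeloid cells. Its interval reached 0.695 in the hippocampus and 0.70 in the olfactory bulb. With the tissues averaged all 34 intervals lay within these bounds, and the median half-width was 0.13. Of the 34 members 15 had means over the arrays below the median of all genes. Gpr34 read 4.96 to 5.55 and Cd14 5.22 to 5.75, near the lists of blood leukocytes. At low signal differences may be compressed, so a narrow interval there says little about the RNA. The arrays of a group did not overlap between genotypes for 5 of 34 genes in the hippocampus and 8 of 34 in the olfactory bulb. The shares over all genes were 13.1% and 17.1%.

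**Figure D1:**
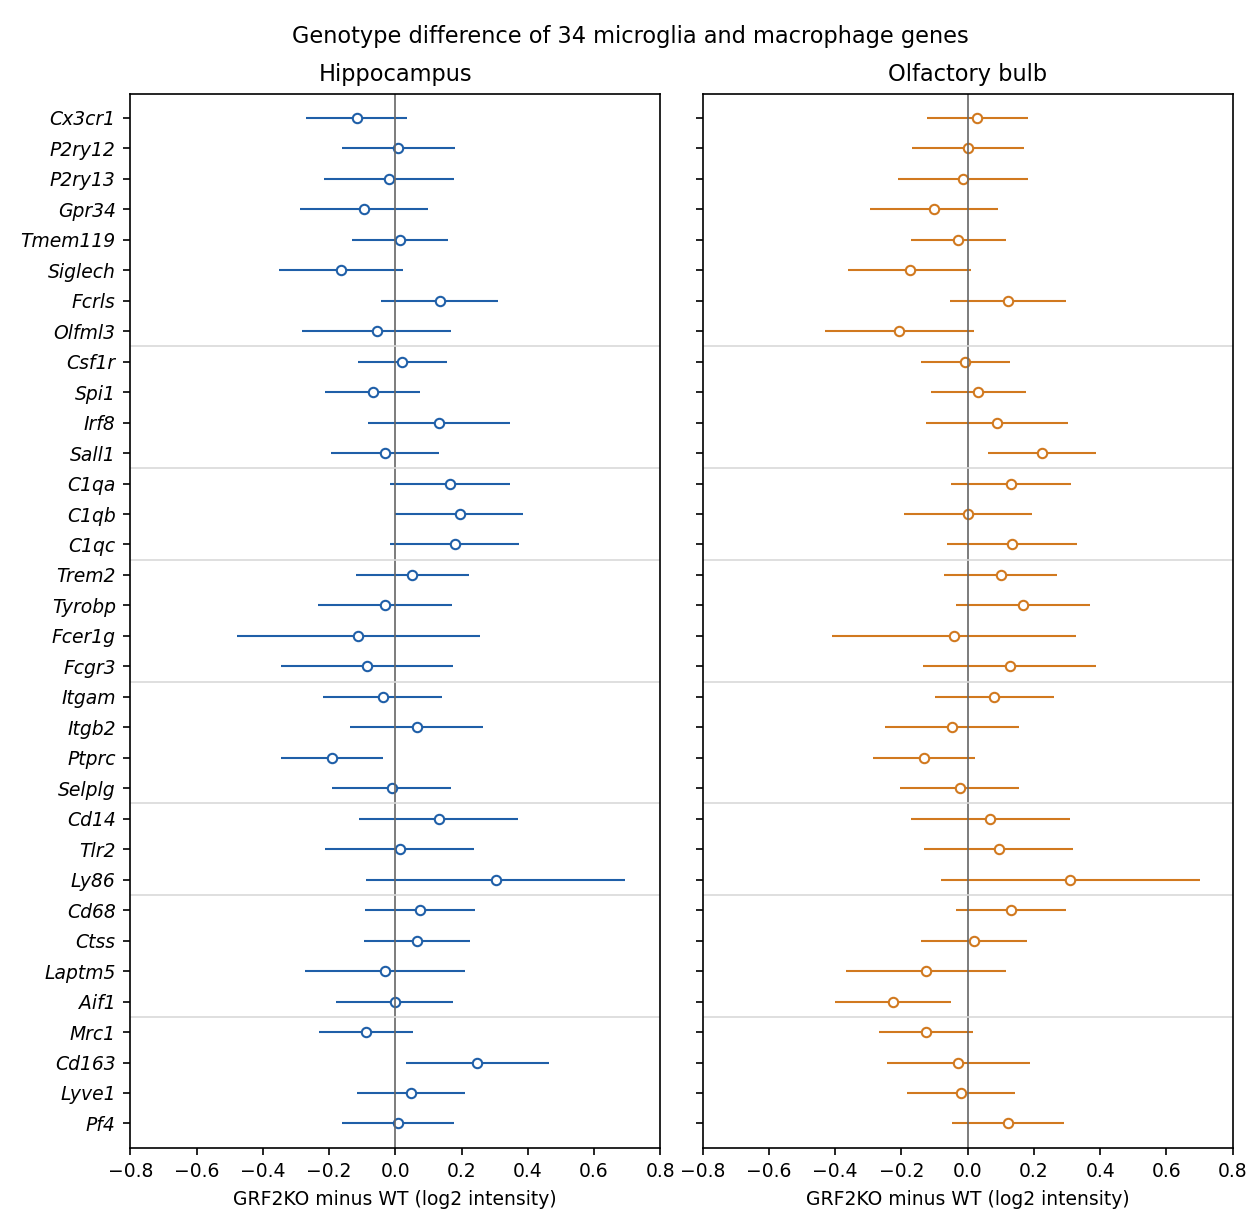
GRF2KO minus WT difference in log2 intensity (x axis) of each of the 34 genes (y axis, grouped by role with grey lines), in hippocampus (left) and olfactory bulb (right), 3 arrays per group; bars are limma's 95% intervals and open circles mark genes not past the threshold. All 68 circles are open, and the widest bars, from -0.088 to 0.695 and from -0.081 to 0.701, belong to Ly86.

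Ly86 had the smallest p of the members in the averaged comparison. It read 9.36, 9.10 and 9.01 in WT olfactory bulb and 9.56, 9.33 and 9.51 in GRF2KO olfactory bulb. In the hippocampus it read 9.61, 8.61 and 9.41 in WT and 9.58, 9.51 and 9.45 in GRF2KO. WT hippocampal array 2 stands lowest, and the groups overlap in both tissues. The averaged difference was 0.31 (SE 0.0835), with a limma adjusted p of 0.209. Under 14 alternatives it was 0.207 to 0.393, with limma adjusted p-values from 0.0575 to 0.456. The pooled SD of Ly86 within groups, 0.29, was the largest of the 34 genes, whose median was 0.10 beside 0.11 over all genes.

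Ptprc, the CD45 phosphatase of all leukocytes, ranked first in the hippocampus. It read 6.15, 6.14 and 6.35 in WT hippocampus and 6.09, 5.98 and 5.99 in GRF2KO hippocampus. The GRF2KO arrays lay below the WT arrays, and the difference was -0.19 (SE 0.0724, limma adjusted p = 0.499), or -0.12 without WT array 3. In the olfactory bulb the values were 6.16, 6.12 and 6.12 against 6.05, 5.94 and 6.01, again without overlap, and the difference of -0.13 (SE 0.0724) did not pass (limma adjusted p = 0.518). The averaged difference was -0.16 (SE 0.0541, limma adjusted p = 0.326). Siglech, a sialic acid-binding lectin that marks microglia, had a difference of -0.165 (SE 0.0872) in the hippocampus and -0.175 (SE 0.0872) in the olfactory bulb, with limma adjusted p-values of 0.606 and 0.476. It read 7.79, 7.77 and 7.86 in WT hippocampus and 7.60, 7.64 and 7.68 in GRF2KO hippocampus. In the bulb it read 7.66, 7.65 and 7.55 in WT and 7.68, 7.32 and 7.34 in GRF2KO, where GRF2KO array 4 lies above the WT values and arrays 5 and 6 below them. Without GRF2KO array 4 the bulb difference was -0.29, and without array 5 it was -0.11. Its averaged difference was -0.17 (SE 0.0554, limma adjusted p = 0.305).

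The C1q chains assemble into the recognition protein of the classical complement pathway. In the hippocampus C1qa, C1qb and C1qc stood at 0.17, 0.19 and 0.18 above WT (SE 0.0846 to 0.0913). None passed, with limma adjusted p-values of 0.593, 0.561 and 0.592. The bulb differences were 0.13, 0.00 and 0.13, with limma adjusted p-values of 0.578, 0.999 and 0.602. C1qb read 8.95, 8.50 and 8.68 in WT hippocampus and 8.90, 8.91 and 8.90 in GRF2KO hippocampus. The GRF2KO arrays lay close together while the WT arrays spread over both sides of them. The C1qb difference was 0.31 without WT array 1 and 0.089 without WT array 2. The genotypes did not overlap for C1qc in the hippocampus (lowest GRF2KO value 8.17, highest WT value 8.12) and for C1qa in the bulb (7.24 and 7.23). Over all genes 13.1% did not overlap in the hippocampus and 17.1% in the bulb. The averaged differences of C1qa and C1qc were 0.15 (SE 0.0518) and 0.16 (SE 0.069), with limma adjusted p-values of 0.354 and 0.488. That of C1qb was 0.097 and did not pass either.

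Sall1, a transcription factor that in the myeloid lineage is restricted to microglia, ranked first in the olfactory bulb. It read 9.23, 9.44 and 9.18 in WT bulb and 9.49, 9.45 and 9.58 in GRF2KO bulb, without overlap. The difference of 0.225 (SE 0.0761) did not pass (limma adjusted p = 0.306). In the hippocampus the difference was -0.03 (SE 0.0761), and the difference between the tissues' knockout effects, -0.26 (SE 0.108), did not pass either (limma adjusted p = 0.434). The per-array mean of 8 markers of olfactory bulb neurons was 9.74 to 9.77 in WT bulb and 9.81 to 9.88 in GRF2KO bulb. The part of these neurons in the Sall1 genotype difference was not tested. Aif1, which encodes the actin-binding protein Iba1, read 5.68, 5.85 and 5.89 in WT bulb and 5.59, 5.49 and 5.67 in GRF2KO bulb. The lowest WT value lies just above the highest GRF2KO value, and the difference of -0.225 (SE 0.0824) had a limma adjusted p of 0.338. In the hippocampus the Aif1 difference was -0.0017 (SE 0.0824), and the difference between the tissues, 0.22 (SE 0.117), had a limma adjusted p of 0.498. That difference was 0.071 with quantile normalization repeated and 0.12 with array weights.

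Among the perivascular genes Cd163, the haemoglobin scavenger receptor, had the smallest p in the hippocampus. It read 5.13, 5.10 and 5.10 in WT hippocampus and 5.22, 5.21 and 5.64 in GRF2KO hippocampus, a difference of 0.25 (SE 0.101, limma adjusted p = 0.525). The groups do not overlap, but array 6 stands apart from the other GRF2KO arrays, and without it the difference was 0.105. Mrc1, the mannose receptor, had differences of -0.09 (SE 0.067) in the hippocampus and -0.13 (SE 0.067) in the bulb, with limma adjusted p-values of 0.712 and 0.498. The Cd163 difference between the tissues' knockout effects was 0.28 (SE 0.143, limma adjusted p = 0.494), and 0.13 without array 6. Lyve1, a hyaluronan receptor, and Pf4, a chemokine of platelets and of some macrophages, differed by 0.05 and 0.01 in the hippocampus and by -0.02 and 0.12 in the bulb.

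None of the other members passed either. The 3 genes of pattern recognition, Cd14, Tlr2 and Ly86, were at 0.01 to 0.30 in the hippocampus and 0.07 to 0.31 in the bulb. The 8 homeostatic surface and secreted genes had a median difference of -0.04 in the hippocampus and -0.02 in the bulb, with 3 of 8 above 0 in each. Cx3cr1, the fractalkine receptor, was at -0.12 and 0.03, and P2ry12, an ADP receptor that steers microglial processes, at 0.0089 and 0.00094. Csf1r, on which microglial survival depends, was measured most tightly (pooled SD 0.044). Its differences were 0.02 (95% interval -0.11 to 0.15) in the hippocampus and -0.01 (-0.14 to 0.13) in the bulb. Trem2, a lipid-sensing receptor, and its adaptor Tyrobp were at 0.05 and -0.03 in the hippocampus and at 0.10 and 0.17 in the bulb. The lysosomal genes Cd68, Ctss and Laptm5 were at 0.07, 0.07 and -0.03 in the hippocampus and at 0.13, 0.02 and -0.13 in the bulb.

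Genes that act with the members were examined in 8 further lists with 98 measured genes. They cover ligands of microglial receptors, receptors and transcription factors, other genes of resting microglia, disease-associated genes, cytokines, complement, Toll-like receptors and further macrophage genes. In limma 0 of 98 passed in the hippocampus, against 0.256% of all genes, and 9 had an unadjusted p under 0.05. In the bulb 0 of 98 passed in limma, against 0.411% of all genes, and 15 had an unadjusted p under 0.05. No share of all genes stands beside the unadjusted counts, so they are not read as an excess. The smallest p was that of Il18, an inflammasome cytokine, in the hippocampus (-0.32, SE 0.0896, limma adjusted p = 0.272) and that of Il1a in the bulb (-0.29, SE 0.0947, limma adjusted p = 0.283). C3ar1, the receptor for the complement fragment C3a, had the smallest p with the tissues averaged, at -0.23 (SE 0.0592, limma adjusted p = 0.178). Its 3 GRF2KO hippocampal values, 6.47, 6.32 and 6.39, lay under the WT values of 6.79, 6.55 and 6.65.

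The arrays of a group were not equally high in these genes. In WT hippocampus array 1 was the highest of its group for 18 of the 34 genes and array 2 the lowest for 17. The mean of the 30 microglia genes deviated from the group by 0.08 and -0.06 on these arrays. In both GRF2KO groups no array deviated by more than 0.013 in this mean. The WT hippocampal group therefore carries the widest spread of the microglia mean, which runs from 7.55 to 7.69 there and from 7.62 to 7.64 in GRF2KO hippocampus. The GRF2KO arrays were not uniform in other respects. The mean of the perivascular genes deviated by 0.07 on GRF2KO bulb array 5 and by 0.069 on GRF2KO hippocampal array 6. Over all probe sets GRF2KO hippocampal arrays 5 and 6 differed most of any pair within a group (SD of the difference 0.297). The mean of 7 oligodendrocyte genes was 9.31 to 9.78 in GRF2KO hippocampus and 9.23 to 9.40 in WT hippocampus. In the hippocampus 7 of 7 lay above WT (63.0% of all genes did), and 0 passed in limma (0.256% of all genes). Between the tissues 7 of 7 passed in limma in GRF2KO (39.1% of all genes) and 1 of 7 in WT (40.9%). Markers of other cell types moved with WT hippocampal arrays 1 and 2. The mean of 8 meningeal and fibroblast genes was 8.38, 7.66 and 7.96 on WT hippocampal arrays 1 to 3, with array 1 highest for 6 of 8 and array 2 lowest for 5. It was 7.69 to 8.18 in WT bulb, 7.79 to 7.85 in GRF2KO bulb and 7.68 to 7.77 in GRF2KO hippocampus. The mean of 7 pericyte and smooth muscle genes was 7.73 on WT hippocampal array 1, against 7.38 and 7.45 on the other WT hippocampal arrays, 7.38 to 7.55 in WT bulb, 7.32 to 7.40 in GRF2KO bulb and 7.40 to 7.49 in GRF2KO hippocampus. Olfactory sensory and epithelium markers differed within WT bulb. The mean of 7 such genes was 7.49 to 8.43 there and 7.64 to 7.79 in GRF2KO bulb. On WT bulb array 1 Cyp2g1 read 8.29, against 5.68 and 5.55 on arrays 2 and 3. Stoml3 read 10.07, against 9.24 and 7.87. The WT tissue calls of Aif1, Olfml3 and Fcgr3 were lost without that array, among others. The part of these markers in the spread of the members was not tested. Values without WT hippocampal array 1 are given beside each member whose call or size turned on it.

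**Figure D2:**
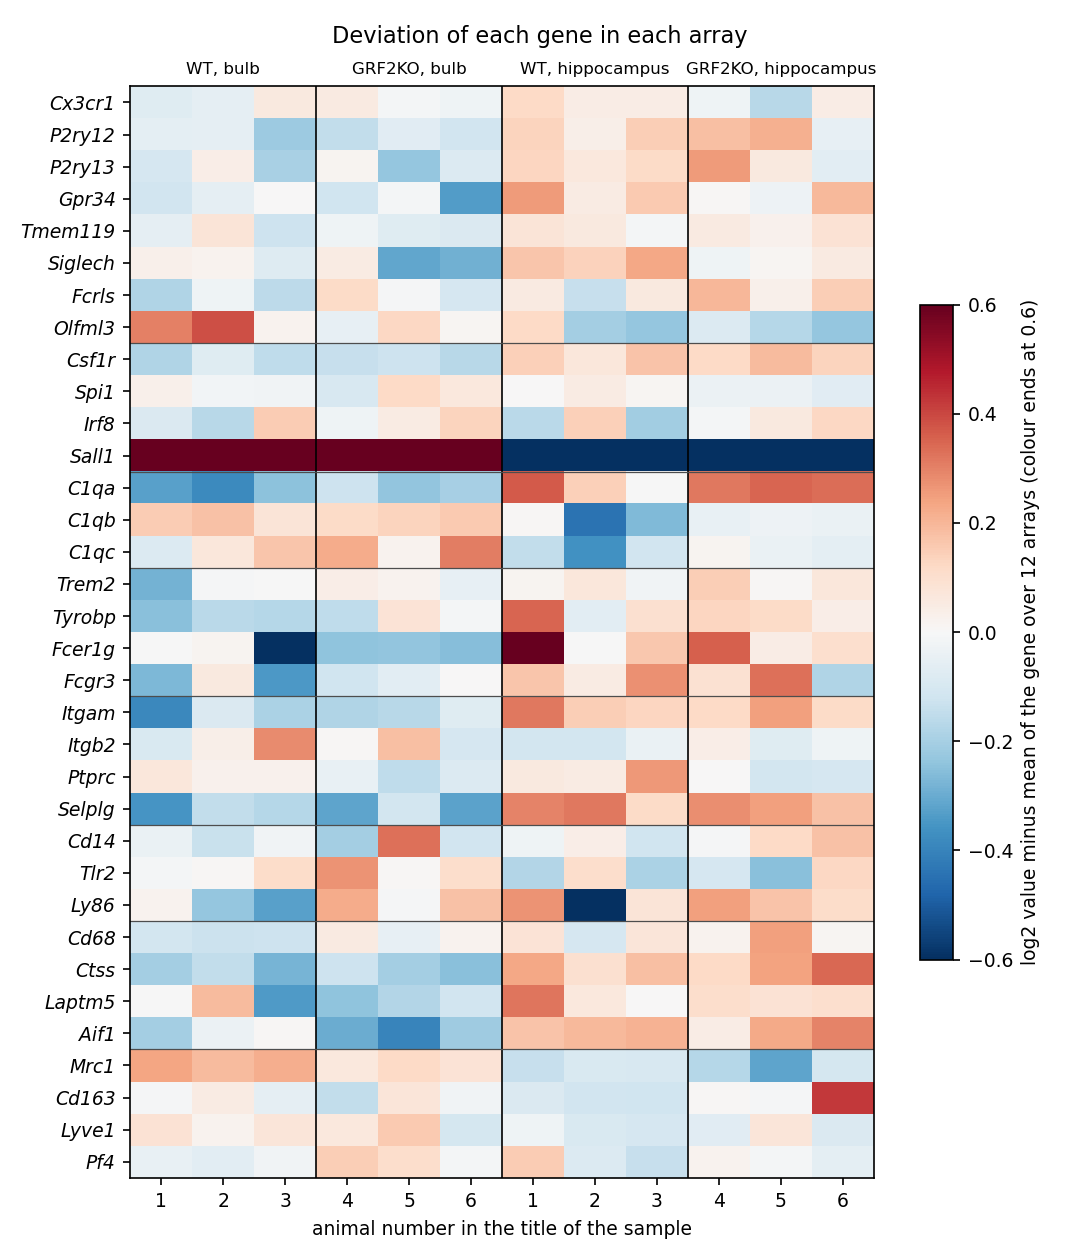
Log2 value of each gene (rows, grouped by role) in each of the 12 arrays (columns, by group and array number) minus the mean of the gene over all 12 arrays; red is above and blue below the mean, and the colour ends at 0.6. Sall1 is the one row at the end of the scale in every array, and WT hippocampal arrays 1 and 2 stand at opposite sides for Ly86, whose values there are 9.61 and 8.61.

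The second question was whether the tissues differ in these genes. In WT 15 of 34 members (44.1%) passed the limma test between hippocampus and olfactory bulb, against 40.9% of all genes, so the share was near the background. Of these, 10 were higher in the hippocampus and 5 lower, against 17.5% and 23.4% of all genes. In GRF2KO mice 9 of 34 (26.5%) passed, against 39.1% of all genes, 7 higher in the hippocampus (19.2% of all genes) and 2 lower (19.9%). The same 9 genes passed in both genotypes, in the same direction, which 30.6% of all genes did. Arrays did not overlap between the tissues for 18 of 34 members in WT (50.9% of all genes) and 15 of 34 in GRF2KO (48.9% of all genes). P2ry12, Csf1r, C1qa, Itgam, Selplg, Ctss and Aif1 (20.6% of the members, against 14.3% of all genes) were higher in the hippocampus. Sall1 and Mrc1 (5.88% of the members, against 16.3% of all genes) were higher in the olfactory bulb.

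The direction of small tissue differences depends on how arrays are scaled. When each array was centred on its median, the hippocampus minus bulb difference of the median gene moved by 0.11 in WT and 0.07 in GRF2KO. The members then counted 18 higher and 3 lower in WT and 13 higher and 2 lower in GRF2KO. Over all genes the calls went from 3480 higher and 4668 lower to 4911 and 2888 in WT, and from 3838 and 3966 to 5330 and 3151 in GRF2KO. As deposited, the median difference of the microglia genes was 0.13 in WT and 0.12 in GRF2KO, beside -0.07 and 0.01 over all genes. Of the 30 microglia genes 76.7% in WT and 73.3% in GRF2KO had fitted differences above 0, against 37.4% and 52.4% of all genes. In both genotypes 21 of 30 were above 0. In single animals, joined by the animal code of the labels, 19 to 24 of 30 were higher in the hippocampus. No share over all genes stands beside these last counts, and genes are not replicates.

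**Figure D3:**
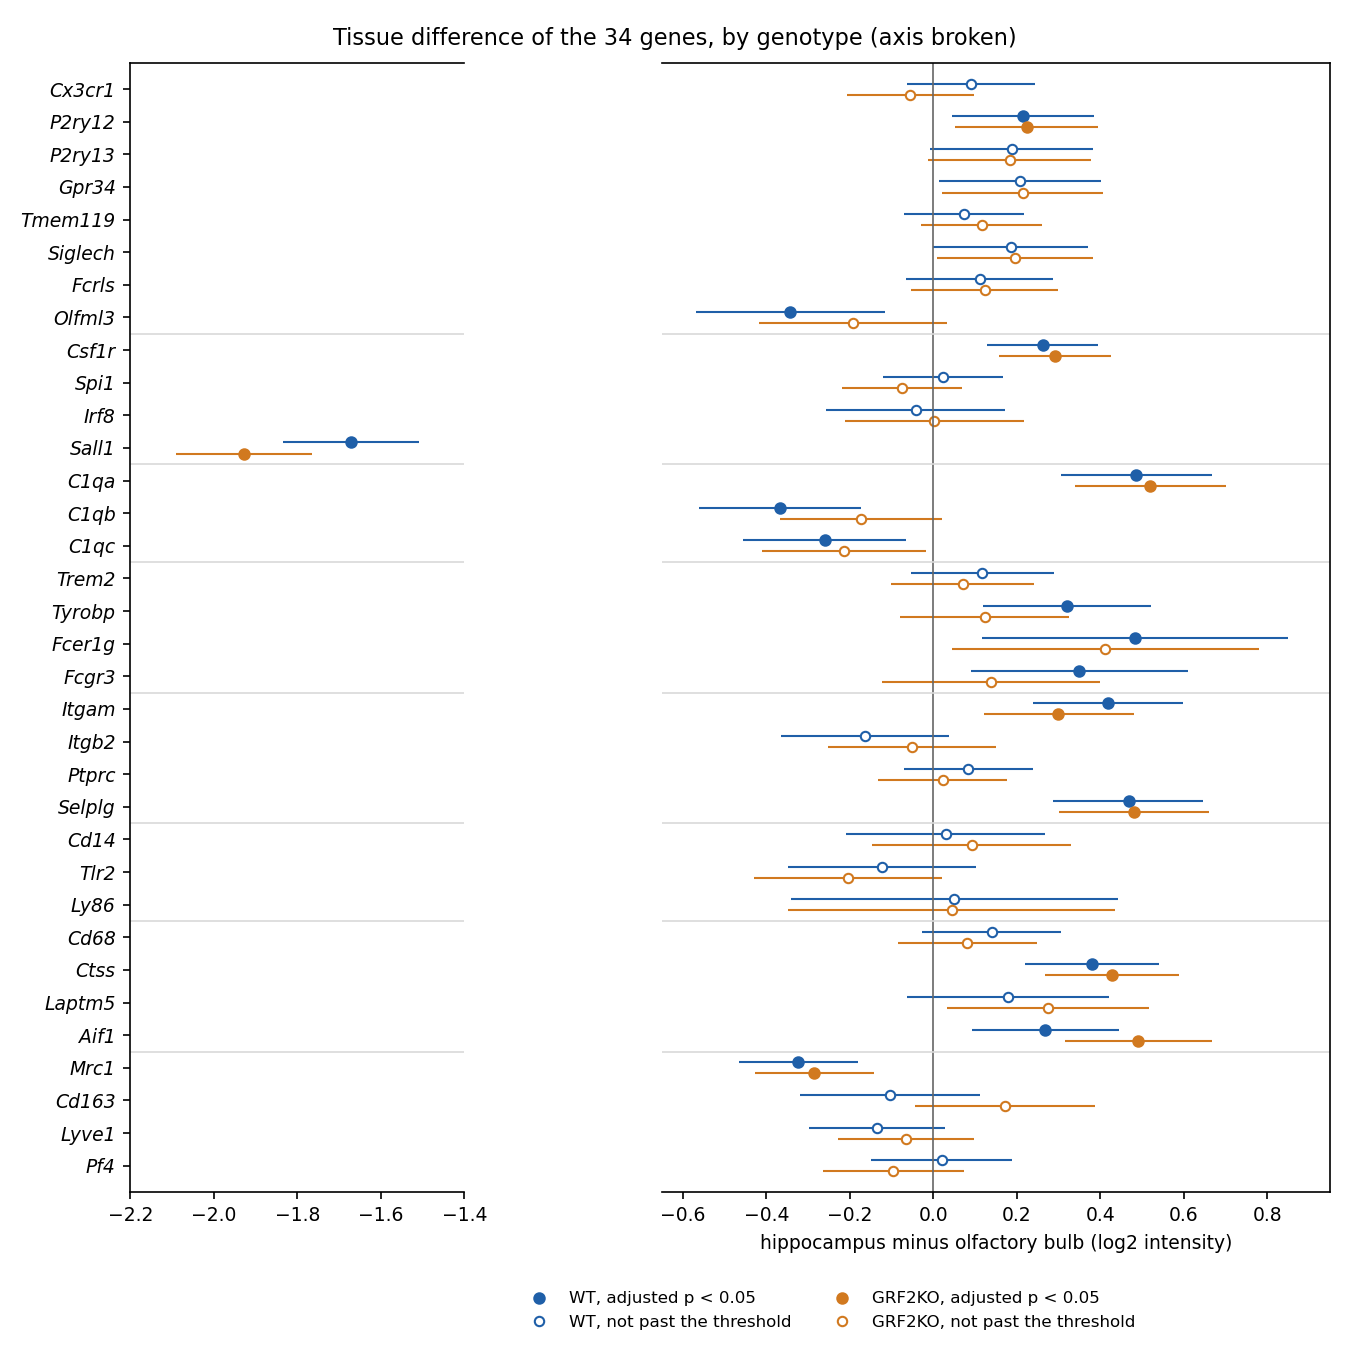
Hippocampus minus olfactory bulb difference in log2 intensity (x axis, broken between -1.4 and -0.65, same scale on both sides) of each of the 34 genes, in WT (blue) and GRF2KO (orange), 3 arrays per group; bars are limma's 95% intervals and filled circles mark an adjusted p under 0.05. Sall1 stands apart at -1.67 and -1.93, and C1qa lies at 0.49 and 0.52 while C1qb and C1qc lie at -0.37 to -0.17.

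Sall1 had the largest tissue difference of the members. Its olfactory bulb values were 9.23, 9.44 and 9.18 in WT and 9.49, 9.45 and 9.58 in GRF2KO. Its hippocampal values were 7.65, 7.58 and 7.60 in WT and 7.64, 7.52 and 7.58 in GRF2KO. All 6 bulb arrays lay above all 6 hippocampal arrays by more than 1 log2 unit. The hippocampus was lower by 3.18-fold in WT (log2 -1.67, SE 0.0761, limma adjusted p = 1.56e-10) and by 3.80-fold in GRF2KO (log2 -1.93, SE 0.0761, limma adjusted p = 3.57e-11). Sall1 differed in direction from Csf1r and from the other microglia genes that passed in both genotypes. Markers of olfactory bulb neurons moved with it, since their per-array mean was 9.74 to 9.88 in the bulb and 6.50 to 6.73 in the hippocampus. Their part in the Sall1 difference was not tested.

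The C1q chains did not follow each other between the tissues. C1qa read 7.14, 7.09 and 7.23 in WT bulb and 7.84, 7.61 and 7.47 in WT hippocampus. In GRF2KO it read 7.35, 7.24 and 7.27 in the bulb and 7.79, 7.82 and 7.81 in the hippocampus. It was higher in every hippocampal array, by 0.49 in WT (SE 0.0846, limma adjusted p = 0.000258) and 0.52 in GRF2KO (SE 0.0846, limma adjusted p = 0.000139).

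C1qb read 9.09, 9.12 and 9.02 in WT bulb and 8.95, 8.50 and 8.68 in WT hippocampus, with no overlap. It was lower in WT hippocampus by 1.29-fold (log2 -0.37, SE 0.0905, limma adjusted p = 0.00421). In GRF2KO the bulb values were 9.06, 9.08 and 9.10 and the hippocampal values 8.90, 8.91 and 8.90, and the difference of -0.17 (SE 0.0905) did not pass (limma adjusted p = 0.152). C1qc was lower in WT hippocampus (log2 -0.26, SE 0.0913, limma adjusted p = 0.0331). That call was lost under 7 of 17 alternatives. The difference was -0.15 with arrays centred (limma adjusted p = 0.255) and -0.235 with quantile normalization repeated (limma adjusted p = 0.0511), and the call was also lost with array weights and with every probe set tested. The others were those without WT bulb array 2 (-0.25), without WT bulb array 3 (-0.20) and without WT hippocampal array 2 (-0.18). Its difference in GRF2KO was -0.21 (SE 0.0913, limma adjusted p = 0.0794), which passed under 2 of 17 alternatives (with the filter on low signal, and at -0.29 without GRF2KO bulb array 5).

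Set against each other within animals, the hippocampus minus bulb difference of C1qa exceeded that of C1qb by 0.77 ± 0.19 (SD, n = 6 animals) and that of C1qc by 0.74 ± 0.17 (SD, n = 6). The sign was the same in 6 of 6 animals for each. An exact sign-flip permutation test gave a two-sided p of 0.0312 for each, 0.0312 after Benjamini-Hochberg adjustment over the 2 comparisons, which is the smallest that 6 animals allow. This comparison was chosen after the values were seen. Within each genotype the arrays of the tissues did not overlap for any of these chains. The signs and this p were therefore fixed before the test, which adds no support to the values. The genes lie side by side in the RefSeq gene order (C1qb, C1qc, C1qa), and their products are chains of a single protein. Each chain was read by 1 probe set, so a difference between transcripts and a difference between probe sets cannot be told apart.

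**Figure D4:**
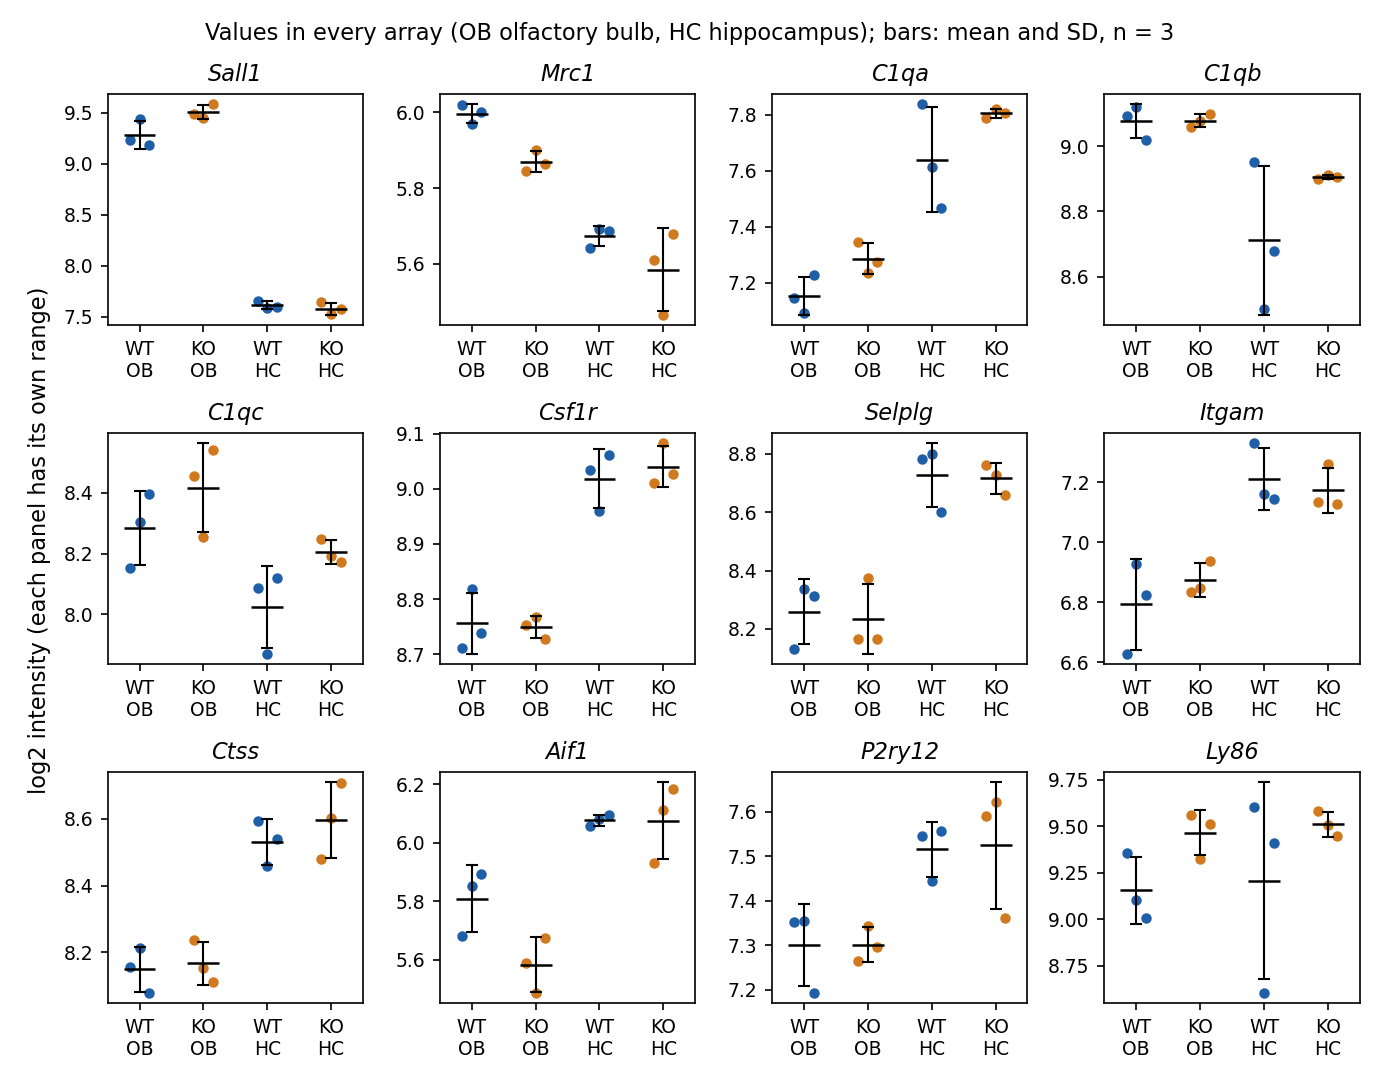
Log2 intensity (y axis, own range in each panel) of 12 members in WT (blue) and GRF2KO (orange) arrays of olfactory bulb (OB) and hippocampus (HC); points are arrays, black lines the mean and SD of 3. C1qa is higher and C1qb lower in every hippocampal array than in any bulb array, and the WT hippocampal arrays spread widest for Ly86, from 8.61 to 9.61.

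The integrin and adhesion members gave 2 of the 7 genes that were higher in the hippocampus in both genotypes. Selplg, the P-selectin ligand carried by myeloid cells, read 8.13, 8.34 and 8.31 in WT bulb and 8.78, 8.80 and 8.60 in WT hippocampus. In GRF2KO it read 8.17, 8.37 and 8.17 in the bulb and 8.76, 8.73 and 8.66 in the hippocampus. The tissues do not overlap, and the difference was 0.47 in WT (SE 0.084, limma adjusted p = 0.000343) and 0.48 in GRF2KO (SE 0.084, limma adjusted p = 0.000272). Itgam, the CD11b chain of complement receptor 3, read 6.63, 6.93 and 6.82 in WT bulb and 7.33, 7.16 and 7.14 in WT hippocampus. Its GRF2KO values were 6.83, 6.85 and 6.94 in the bulb and 7.13, 7.26 and 7.13 in the hippocampus. The difference was 0.42 (SE 0.0842, limma adjusted p = 0.000876) in WT and 0.30 (SE 0.0842, limma adjusted p = 0.00985) in GRF2KO. Itgb2, which encodes the CD18 partner of CD11b, had differences of -0.16 and -0.05, and neither passed (limma adjusted p = 0.186 and 0.717). Ptprc was at 0.08 and 0.02 (limma adjusted p = 0.380 and 0.834).

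Ctss, a lysosomal cysteine protease of antigen-presenting cells, read 8.16, 8.21 and 8.08 in WT bulb and 8.59, 8.46 and 8.54 in WT hippocampus. In GRF2KO the values were 8.24, 8.15 and 8.11 in the bulb and 8.48, 8.60 and 8.71 in the hippocampus. All hippocampal arrays lay above all bulb arrays, by 0.38 in WT (SE 0.0748, limma adjusted p = 0.000737) and 0.43 in GRF2KO (SE 0.0748, limma adjusted p = 0.000269). Aif1 read 6.06, 6.08 and 6.09 in WT hippocampus and 5.93, 6.11 and 6.18 in GRF2KO hippocampus, above the bulb values given earlier. The difference was 0.27 (SE 0.0824, limma adjusted p = 0.0167) in WT and 0.49 (SE 0.0824, limma adjusted p = 0.000188) in GRF2KO. In WT the Aif1 call was lost without bulb array 1 (0.20, limma adjusted p = 0.0799) and without hippocampal array 3 (0.26, limma adjusted p = 0.0506). Cd68 and Laptm5, also lysosomal, did not pass in either genotype, at 0.14 and 0.18 in WT and 0.08 and 0.27 in GRF2KO. With the animal as a fixed block Laptm5 passed in GRF2KO (limma adjusted p = 0.0244, against 0.0689 without the block).

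Csf1r read 8.71, 8.82 and 8.74 in WT bulb and 9.03, 8.96 and 9.06 in WT hippocampus. In GRF2KO it read 8.75, 8.77 and 8.73 in the bulb and 9.01, 9.08 and 9.03 in the hippocampus. The tissues stood clearly apart, by 0.26 in WT (SE 0.0626, limma adjusted p = 0.00327) and 0.29 in GRF2KO (SE 0.0626, limma adjusted p = 0.00153). P2ry12 read 7.35, 7.35 and 7.19 in WT bulb and 7.55, 7.44 and 7.56 in WT hippocampus. Its GRF2KO values were 7.26, 7.34 and 7.30 in the bulb and 7.59, 7.62 and 7.36 in the hippocampus. The difference was 0.22 in both genotypes (SE 0.0797), just past the test with limma adjusted p-values of 0.0418 and 0.0369. This call was the least stable of the 9. It was lost under 6 of 17 alternatives in WT and 8 of 17 in GRF2KO. With the animal as a fixed block the limma adjusted p was 0.0844 in WT and 0.0743 in GRF2KO. Leaving out WT bulb array 3, WT hippocampal array 1 or WT hippocampal array 3 gave 0.16, 0.20 and 0.195. Leaving out GRF2KO bulb arrays 4, 5 or 6 or hippocampal arrays 4 or 5 gave 0.205, 0.245, 0.22, 0.19 and 0.175, and the call was lost each time.

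The other surface markers of resting microglia did not pass on the values as deposited. With arrays centred more members passed as higher in the hippocampus, as counted earlier. Which of these markers were among them is not given here. Cx3cr1 differed by 0.09 in WT and -0.055 in GRF2KO, and Tmem119, a membrane protein typical of microglia, by 0.07 and 0.12. Gpr34, Siglech and P2ry13 were at 0.21, 0.19 and 0.19 in WT and at 0.21, 0.20 and 0.18 in GRF2KO, with limma adjusted p-values from 0.0769 to 0.134. Fcrls, an Fc receptor-like protein of microglia, was at 0.11 and 0.12. Among the transcription factors Spi1 differed by 0.02 and -0.075 and Irf8 by -0.04 and 0.00.

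Besides C1qb and C1qc, 4 genes passed in WT and not in GRF2KO. Tyrobp, the signalling adaptor of Trem2, was higher in WT hippocampus by 0.32 (SE 0.0944, limma adjusted p = 0.013), and its GRF2KO difference was 0.12 (limma adjusted p = 0.338). Without WT hippocampal array 1, which was high in meningeal and smooth muscle markers, its WT difference was 0.21 (limma adjusted p = 0.0774). In GRF2KO it was 0.06 without bulb array 4. Fcer1g, the common gamma chain of Fc receptors, and Fcgr3, the low-affinity IgG receptor III, were higher by 0.48 (SE 0.172, limma adjusted p = 0.0354) and 0.35 (SE 0.122, limma adjusted p = 0.0317). Both overlapped between the tissues, and the call was lost under 5 of 17 alternatives for Fcer1g and 5 of 16 for Fcgr3. For Fcer1g the difference was 0.27 without WT bulb array 3 and 0.28 without WT hippocampal array 1 (limma adjusted p = 0.185 and 0.186). For Fcgr3 it was 0.31 and 0.27 without WT bulb arrays 1 and 3, and 0.35 and 0.295 without WT hippocampal arrays 1 and 3. In GRF2KO Fcer1g was at 0.41 (limma adjusted p = 0.0723), but it passed under 5 of 17 alternatives. These were the filter on low signal (limma adjusted p = 0.0459), centred arrays (0.0309), array weights (0.00418), the fit of the GRF2KO arrays alone (0.00349) and the animal as a fixed block (0.00512). Fcgr3 was at 0.14 in GRF2KO (limma adjusted p = 0.408), with 0.013 without hippocampal array 5 and 0.27 without array 6. Olfml3, a secreted matrix protein, was lower in WT hippocampus (log2 -0.34, SE 0.106, limma adjusted p = 0.0172), and at -0.19 in GRF2KO (limma adjusted p = 0.175). The WT call was lost with arrays centred (-0.23), without WT bulb arrays 1 or 2 (-0.31 and -0.27) and without WT hippocampal arrays 2 or 3 (-0.29 and -0.28). The tissue difference was not shown to differ between genotypes for any of these genes. The limma adjusted p of that test was 0.590 for C1qb, 0.912 for C1qc, 0.598 for Tyrobp, 0.933 for Fcer1g, 0.655 for Fcgr3 and 0.718 for Olfml3.

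Of the perivascular macrophage genes 1 passed in both genotypes. Mrc1 read 6.02, 5.97 and 6.00 in WT bulb and 5.64, 5.69 and 5.69 in WT hippocampus. In GRF2KO it read 5.85, 5.90 and 5.86 in the bulb and 5.61, 5.47 and 5.68 in the hippocampus. It was lower in the hippocampus in 6 of 6 animals, by 1.25-fold in WT (log2 -0.32, SE 0.067, limma adjusted p = 0.00114) and 1.22-fold in GRF2KO (log2 -0.29, SE 0.067, limma adjusted p = 0.00298). Cd163, Lyve1 and Pf4 did not pass, at -0.10, -0.13 and 0.02 in WT and at 0.17, -0.07 and -0.10 in GRF2KO. All 4 genes had means over the arrays below the median of all genes, as did 15 of the 34 members. The mean of the 4 was 5.44 to 5.67 per array. That is near the neutrophil genes (5.15 to 5.56) and the T and NK cell genes (5.13 to 5.51), which read low. At this level differences may be compressed, so small differences and narrow intervals say little about these cells. In a further list of 10 perivascular and meningeal macrophage genes 5 were lower in WT hippocampus (23.4% of all genes were) and 2 in GRF2KO hippocampus (19.9% of all genes), and 0 were higher. The GRF2KO share was thus at the background. Stab1, a scavenger receptor named after its values were seen because it passed in both genotypes, was at -0.245 and -0.21 (limma adjusted p = 0.0129 and 0.0291) and Tgfbi, an extracellular matrix protein, at -0.53 and -0.30 (limma adjusted p = 0.00118 and 0.0396). Folr2, Clec10a and Siglec1 were lower in WT at -0.295, -0.315 and -0.263. Vascular genes moved with them in part, since Cldn5 and Flt1 of the endothelial markers were lower in the hippocampus in both genotypes (-0.255 and -0.28 in WT) and Slco1c1 was higher (0.31). Their part was not tested.

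Among ligands that act on microglia 5 of 10 passed in WT (50%, against 40.9% of all genes) and 4 of 10 in GRF2KO (40.0%, against 39.1%), which is near the background. Tgfb2, a transforming growth factor, was higher in the hippocampus by 1.125 in WT (SE 0.0912, limma adjusted p = 1.01e-07) and 1.06 in GRF2KO (SE 0.0912, limma adjusted p = 1.95e-07). Tgfb3 was lower in WT (log2 -1.25, SE 0.112, limma adjusted p = 3.17e-07) and in GRF2KO (log2 -1.32, SE 0.112, limma adjusted p = 1.72e-07). Cd200, a neuronal signal that restrains microglia, was higher at 0.33 and 0.23, and Cd47, the signal against phagocytosis, was lower at -0.28 and -0.29. In all, 2 of 10 ligands were higher in the hippocampus in each genotype, with 3 lower in WT and 2 in GRF2KO.

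Of 18 further receptors, transcription factors and signalling genes 1 was higher in the hippocampus in each genotype, with 7 lower in WT and 6 in GRF2KO. Together these are 44.4% and 38.9% of the list, near the 40.9% and 39.1% of all genes. Plcg2, a phospholipase downstream of Trem2, was the higher one (0.45 and 0.62). Mef2c, a transcription factor of neurons as well as microglia, was lower at -1.29 and -1.27 (SE 0.0906), and Axl and Runx1 were lower at -0.49 and -0.48 in WT and -0.35 and -0.34 in GRF2KO. Of 16 further genes of resting microglia 4 were higher and 2 lower in each genotype, 37.5% of the list and again near the background. Cathepsin D (Ctsd) was higher at 0.54 and 0.46 and the tetraspanin Cd53 at 0.45 and 0.36, while the matrix protein gene Sparc was lower in WT (-0.335) and Ltc4s, a leukotriene synthase, was higher in GRF2KO (0.335).

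In the list of disease-associated microglia genes, 2 of 14 were higher in WT hippocampus and 1 lower, and in GRF2KO 3 were higher and 2 lower. These are 21.4% and 35.7% of the list, against 40.9% and 39.1% of all genes. The large ones were Lpl, lipoprotein lipase (2.81 and 2.97), and Fabp5, a fatty acid-binding protein (1.34 and 1.29). Gpnmb, a membrane glycoprotein of phagocytes, was lower at -1.08 and -1.26. Lpl and Fabp5 are made by neurons and other brain cells as well, and 6 of 6 hippocampal neuron markers moved with them. The part of neurons was not tested. Of 12 cytokine and chemokine genes 2 were higher in the hippocampus in each genotype and 1 lower in WT. These are 25.0% and 16.7% of the list, under the 40.9% and 39.1% of all genes. Ptgs2, an enzyme of prostaglandin synthesis, was at 1.915 and 1.64. Of 9 other complement genes 0 were higher, 4 were lower in WT and 2 in GRF2KO. The lower ones are 44.4% and 22.2% of the list, against 23.4% and 19.9% of all genes, so the GRF2KO share was near the background. They were led by C4b at -0.615 in both and C3ar1 at -0.30 and -0.38. Of 9 Toll-like receptor genes Tlr3 and Tlr4 were lower, at -0.51 and -0.405 in WT and -0.58 and -0.56 in GRF2KO. That is 22.2% of the list in each, near the 23.4% and 19.9% of all genes that were lower.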

How the data were processed

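Biotinylated targets from the total RNA of 12 samples were read on arrays of 1 colour, per the labels' protocols. The authors deposited log2 intensities, made with RMA and oligo per the submitters' processing notes; the notes used here name no version of either and do not say whether the 12 arrays were normalized together. RMA normalizes between arrays, so a shift common to most genes would be removed, and it compresses differences near background.

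Of 35556 probe sets 21789 carry 1 symbol; the probe set of highest mean stood for a gene, which left 19938 genes, with no filter. limma 3.58.1 (R 4.3.3) fitted 4 group means over the 12 arrays, and for the averaged comparison 6 animals, with Benjamini-Hochberg adjustment over all genes at 0.05. The fits were tested on data simulated with a log2 change of 1, larger than any genotype difference of a member. That test does not show what the fits recover at the sizes seen here. Alternatives covered the probe sets tested, a filter on low signal, array centring, repeated quantile normalization, limma's moderation and array weights, the arrays in the fit, the animal as a block and each array left out. Figures were drawn with matplotlib 3.10.9. The number of arrays limits the precision.

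The members and lists were chosen with earlier results of these data known. Named genes were, per genotype comparison, the 3 members of smallest p (no member passed), all members past the threshold in both genotypes between tissues, and up to 4 genes past it per further list, largest difference first. Stab1 was named outside this rule.

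Tissues of an animal were joined by the animal code of the labels. For a pair of WT animals the title's number joins them differently, and the labels do not settle which is right. Joined by code, same-animal deviations correlated at -0.255 to 0.116, so arrays joined in this way did not deviate together. The pairs in question correlated at 0.116 and -0.255 by code and at 0.252 and -0.1525 by title.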

Additional observations from a re-analysis of the deposited data

How the results depend on the processing

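No result reversed a call. The count of members past the threshold between genotypes was 0 under each alternative run. The WT tissue count of 15 was 11 to 21 under other settings and 11 to 14 with an array left out. That of GRF2KO, 9, was 15 with arrays centred, 14 with array weights and 8 to 11 with an array left out. Sall1, C1qa, Selplg, Ctss, Itgam, Csf1r and Mrc1 kept their tissue calls in both genotypes under each alternative run.

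Medians of lists moved by more than the spread of arrays as follows. The WT tissue median of the microglia genes was 0.179 with the filter on low signal, 0.242 with arrays centred and 0.188 with quantile normalization repeated, and that of GRF2KO was 0.189 with arrays centred. The perivascular tissue median was -0.005 (centred) and -0.007 (quantile) in WT and -0.011 (centred) in GRF2KO. With quantile normalization repeated the perivascular genotype median was -0.042 in the hippocampus and 0.04 in the bulb. For the difference between the tissues' knockout effects, the microglia median was -0.034 (centred) and -0.042 (quantile), and the perivascular median -0.096 (quantile). With an array left out, the microglia tissue median was 0.112 to 0.203 in WT, highest without WT hippocampal array 2. The perivascular genotype median was then -0.009 to 0.083 in the hippocampus and -0.08 to 0.009 in the bulb, and the GRF2KO tissue median -0.14 to -0.045.

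With the animal as a replicate block the WT tissue count was 15 (random block) or 14 (fixed block), and the GRF2KO count 9 or 10. The block changed no tissue call of a member other than those of P2ry12, Fcer1g and Laptm5. Joining tissues by the title's number as a random block gave 15 and 9. Leaving out Sall1, chosen after seeing the data, gave microglia tissue medians of 0.14 and 0.123. The filter on low signal removes the 4 perivascular genes, so it gave no value for them. The 3 arrays of a group limit the precision, and 15 members had means below the median of all genes.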
